A study of Mus musculus with 6 samples.

Results

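The genes described here are 40 that mark fibroblasts, smooth muscle and other mesenchymal cells, out of 24346 gene symbols in the tables. They were given as a list of names and fall into 5 classes. These are 11 smooth muscle genes, 18 genes of the matrix that fibroblasts make, 5 fibroblast surface genes, 4 mesenchymal transcription factors and 2 genes of the mesenchymal cytoskeleton. All 40 were found in every table. Their levels were read in mouse prostate cells that the labels call luminal, that is, the secretory epithelium of the gland.

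The CSF1 group came from mice with a transgene of mouse Csf1 driven by the probasin promoter of the rat, a promoter of the prostate epithelium. The WT group came from littermates without it. All mice were C57BL/6 and 4 months old, and in both groups the cells were obtained by fluorescence-activated sorting, with surface markers of the sort not given in the sources used here. Each group had 3 libraries, numbered 3, 5 and 8 in both groups. Values below follow the order of replicates 3, 5 and 8. Nothing in the labels says that the 3 libraries of a group came from separate mice, so each p-value sets a difference against the spread of these samples alone, which may be technical. Levels are given as FPKM, that is, fragments relative to transcript length and library size, summed over the transcripts of a gene.

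Csf1, the targeted gene, checked the labels. It lay at 1.54, 2.25 and 3.98 FPKM in the WT libraries and 1082, 1326 and 1678 FPKM in the CSF1 libraries. The coverage per unit of FPKM, which grows with sequencing depth, lay between 2.72 and 3.50 in WT and between 4.17 and 5.01 in CSF1, so low genes were read at lower depth in WT. The labelled cell type was checked with 10 luminal markers, all of which were detected in all 6 libraries. Their summed level was 10736 to 30069 FPKM in WT and 8507 to 17007 FPKM in CSF1, ranges that overlap. Of the 10, 2 passed the test as higher (Epcam and Cdh1) and 1 as lower (Hoxb13), named here after their values were seen, and Hoxb13 did not pass with no limit on the mean level (adjusted p = 0.0577 by limma). The most abundant, Pbsn, Krt18 and Krt8, did not pass (limma adjusted p = 0.363, 0.703 and 0.309), and Krt8 passed as higher with the replicate number as a block (adjusted p = 0.0452). For the 10 markers the median log2 change was 0.03 with no further scaling, and it was -0.20, -0.11 and -0.15 with the other 3 scalings tried.

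Fibroblasts of the prostate stroma lay down the matrix around the glands, and smooth muscle cells sheath the glands and contract to expel secretion. Smooth muscle cells are defined by actins, myosin and their regulators, many of which are switched on by serum response factor with its partner myocardin at a short DNA motif, the CArG box. Transcription factors of the Snail, Zeb and Twist families mark mesenchymal cells, and they can repress epithelial genes such as Cdh1 in epithelial cells that pass to a mesenchymal state.

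RefSeq promoters (GRCm38.p6) were matched for 24 of the 40 genes. Those of Acta2 and Myl9 are shown because they are 2 of the 5 most abundant smooth muscle genes and hold matches to the CArG box. Cald1, also among these 5, had a box with 1 mismatch before an upstream start (34598504) but none before that of its deposited transcript (34709444). Its promoters are not shown. Those of the 3 starts of Gsn are shown because the deposited transcripts divide its signal among these starts. Each sequence is the 250 bases before the start, read 5′ to 3′ on the strand of the gene, and capitals mark a CArG box with at most 1 mismatch. The Acta2 window is chr19:34255374-34255623 on the minus strand. The Myl9 window is chr2:156775214-156775463 and the Gsn windows are chr2:35256109-35256358, chr2:35266494-35266743 and chr2:35282130-35282379, all on the plus strand.
Acta2: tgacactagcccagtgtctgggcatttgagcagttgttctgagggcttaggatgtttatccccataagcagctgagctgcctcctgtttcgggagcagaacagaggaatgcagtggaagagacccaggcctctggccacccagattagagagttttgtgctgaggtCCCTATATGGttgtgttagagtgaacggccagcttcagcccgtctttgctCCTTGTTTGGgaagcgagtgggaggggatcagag
Myl9: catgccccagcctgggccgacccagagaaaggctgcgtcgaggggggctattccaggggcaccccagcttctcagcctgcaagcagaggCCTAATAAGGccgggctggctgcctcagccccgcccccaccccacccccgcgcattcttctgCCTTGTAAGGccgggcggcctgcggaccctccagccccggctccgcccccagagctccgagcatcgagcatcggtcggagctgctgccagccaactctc
Gsn upstream start: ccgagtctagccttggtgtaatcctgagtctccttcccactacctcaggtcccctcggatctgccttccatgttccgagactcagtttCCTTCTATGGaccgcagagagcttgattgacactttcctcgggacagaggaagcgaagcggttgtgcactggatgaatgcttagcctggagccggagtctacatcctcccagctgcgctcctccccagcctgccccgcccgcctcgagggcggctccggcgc
Gsn middle start: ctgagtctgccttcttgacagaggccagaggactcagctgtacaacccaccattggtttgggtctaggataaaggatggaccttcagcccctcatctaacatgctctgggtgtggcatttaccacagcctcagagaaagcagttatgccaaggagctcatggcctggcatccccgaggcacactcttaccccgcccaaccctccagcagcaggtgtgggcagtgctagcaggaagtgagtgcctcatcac
Gsn downstream start: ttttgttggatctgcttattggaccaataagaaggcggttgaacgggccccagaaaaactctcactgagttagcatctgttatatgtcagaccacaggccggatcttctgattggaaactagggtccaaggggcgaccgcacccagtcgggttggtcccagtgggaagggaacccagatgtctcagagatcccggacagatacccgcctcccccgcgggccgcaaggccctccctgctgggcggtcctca
The box of Myl9 whose first base is at -161 from the start matched the motif with no mismatch, and the one at -99 had 1 mismatch. Both boxes of Acta2, at -84 and -34, had 1 mismatch each. The motif reads as a CArG box on both strands, so 1 search covers both. Over all 32851 promoter windows of this length, 1.47% held an exact box and 18.6% held one with at most 1 mismatch. Of the 9 windows of smooth muscle genes, 1 held an exact box (11.1%) and 4 held one with at most 1 mismatch (44.4%). Of the 24 windows of the other genes, 0 held an exact box and 5 held one with at most 1 mismatch (20.8%). Windows of the same gene can overlap, and those at the Fbln1 starts 85205949 and 85206008 hold the same box. All boxes here are matches of letters and not shown to be bound.

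All 5 classes had members that were higher in CSF1, and no gene of the 40 was lower. In 39 of the 40 every CSF1 library lay above every WT library, which held for 28.6% of all 17920 genes with signal. The exception was Fap. In WT most of these genes were low: 26 of 40 were below 1 FPKM in every WT library, and 4 (Dcn, Gsn, Mgp and Thbs1) were above 10 FPKM in every WT library. In bulk RNA, fewer cells of a type and less RNA per cell cannot be told apart. The test was limma's moderated test on log2(FPKM + 1), with Benjamini-Hochberg adjustment over all genes that averaged 1 FPKM or more and a threshold of 0.05. Of the 40 genes, 27 had such a mean and 27 of these were higher. Over all 10951 tested genes, 24.9% were higher and 7.47% were lower. Only 12 of the 27 had a WT mean of at least 1 FPKM and 15 entered the test through their CSF1 level, which by itself fixes their direction, so this count is a description. With no limit on the mean, all 40 were tested, 33 were higher and 0 lower, where 16.2% of 17920 genes were higher. No gene of the 40 was lower at an unadjusted p under 0.05 in either fit.

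**Figure D1:**
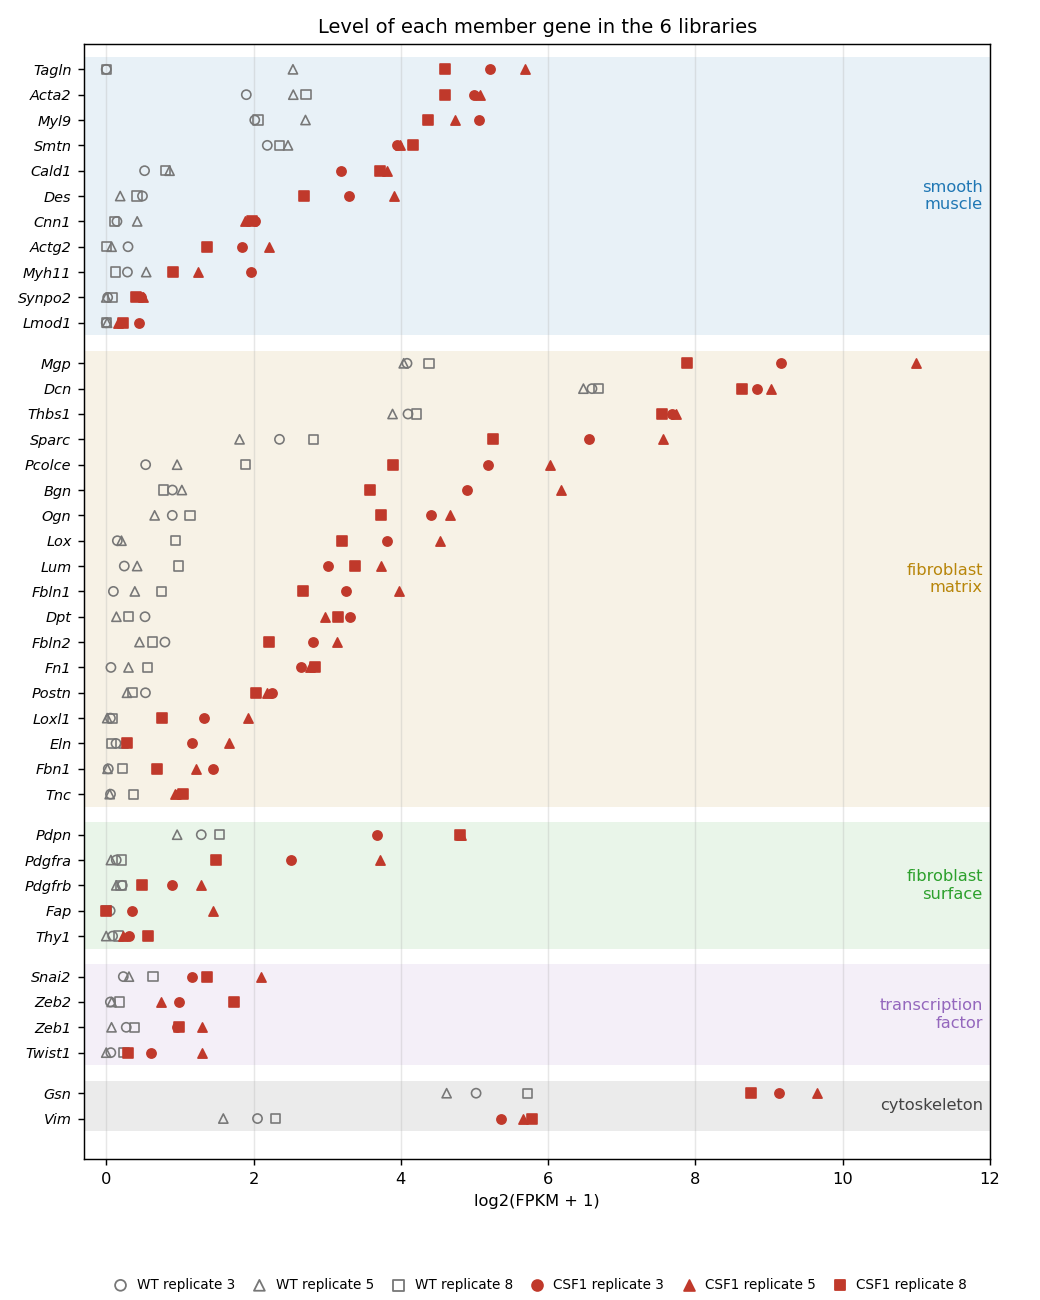
Level of each of the 40 genes in the 6 libraries, as log2(FPKM + 1) on the horizontal axis, with open grey symbols for WT and filled red symbols for CSF1 and the symbol shape giving the replicate number. The CSF1 symbols lie to the right of all WT symbols in 39 of 40 genes, and the CSF1 symbols of Mgp, Bgn, Sparc and Pdgfra are spread far more widely than those of Thbs1, Dcn, Cnn1 and Smtn.

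The scaling of the libraries moved the whole distribution of changes. Over all tested genes the median log2 change was 0.17 with no further scaling, -0.16 after quantile normalization, 0.05 after median-ratio scaling and 0.00 when rescaled to genes outside the 5 most abundant. Of the genes that passed, the share that was higher was 77.0% before and 41.8%, 61.5% and 59.7% after these 3 scalings. Against those shifts the 27 tested genes had a median of 2.85, 2.36, 2.75 and 2.72, and their lowest change, that of Snai2, was 1.15, 0.48, 1.09 and 1.08.

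Smooth muscle genes were higher in CSF1 from a low level in WT. Of the 11, 8 had a mean of at least 1 FPKM and all 8 were higher, where 24.9% of all tested genes were. Their median log2 change was 2.48. Of these 8, 4 entered the test through their CSF1 level alone, so the count and the median are a description. The 5 most abundant were Tagln, Acta2, Myl9, Smtn and Cald1. Acta2 encodes the smooth muscle actin (chromosome 19, 34240336 to 34255373, minus strand) and was at 2.74, 4.81 and 5.56 FPKM in the WT libraries and 30.9, 32.7 and 23.2 FPKM in the CSF1 libraries. The lowest CSF1 library was well above the highest WT library. The mean was 4.37 ± 1.46 FPKM in WT and 28.9 ± 5.03 FPKM in CSF1 (SD, n = 3 per group), 6.62-fold higher, and the log2 change was 2.50 ± 0.24 (SE, adjusted p = 0.000137 by limma). Myl9, the regulatory light chain of smooth muscle myosin (chromosome 2, 156775464 to 156781657, plus strand), was at 3.05, 5.52 and 3.17 FPKM in the WT libraries and 32.4, 25.7 and 19.7 FPKM in the CSF1 libraries. The groups were again apart, and the mean was 6.63-fold higher (log2 change 2.46 ± 0.24, limma adjusted p = 0.000174). Acta2 and Myl9 thus differed between the groups by nearly the same factor. A link of this to their promoters was not tested.

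Tagln encodes transgelin, an actin-binding protein that is an early smooth muscle marker (chromosome 9, 45929628 to 45936058, minus strand). It was listed at 0, 4.80 and 0 FPKM in the WT libraries and 36.0, 50.5 and 23.3 FPKM in the CSF1 libraries. Among the WT libraries only replicate 5 had signal, and all CSF1 libraries lay above it. The log2 change was 4.32 ± 0.64 (limma adjusted p = 0.00128), and it was 5.17 without WT replicate 5. An exact 0 in these tables can be an estimate that failed, since 4 of 80 ribosomal protein genes are also at 0 in at least 1 library. Exons of Tagln overlap those of Pcsk7 on the opposite strand, and the library kits do not keep the strand, so reads of the pair cannot be told apart. Pcsk7 was at 7.03, 9.52 and 10.8 FPKM in the WT libraries and 5.38, 12.2 and 7.36 FPKM in the CSF1 libraries and did not pass the test (log2 change -0.17 ± 0.28, limma adjusted p = 0.687).

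Smtn, which encodes smoothelin of contractile filaments (chromosome 11, 3517522 to 3539292, minus strand), varied little within either group. It was at 3.55, 4.53 and 4.12 FPKM in the WT libraries and 14.4, 14.9 and 16.9 FPKM in the CSF1 libraries. The groups were apart with little spread in either, for a 3.79-fold higher mean (log2 change 1.70 ± 0.15, limma adjusted p = 0.000116). Cald1, caldesmon, which restrains actomyosin (chromosome 6, 34709444 to 34775469, plus strand), was at 0.434, 0.815 and 0.741 FPKM in the WT libraries and 8.12, 13.1 and 12.1 FPKM in the CSF1 libraries. Its mean was 16.8-fold higher, with a log2 change of 2.85 ± 0.22 (limma adjusted p = 5.06e-05). Among the 3 remaining tested genes, Des, the muscle intermediate filament desmin, rose from a mean of 0.294 ± 0.138 to 9.40 ± 4.29 FPKM, and Cnn1, calponin, rose from 0.176 ± 0.141 to 2.90 ± 0.186 FPKM. Actg2, the enteric smooth muscle actin, was at 0.228, 0.0519 and 0 FPKM in the WT libraries and 2.59, 3.61 and 1.58 FPKM in the CSF1 libraries (log2 change 1.68 ± 0.27, limma adjusted p = 0.0018). Muscle actins are close in sequence, so reads may be shared between Acta2, Actg2 and their paralogs, and how the authors' counting divided them was not tested.

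The 3 least abundant smooth muscle genes were low in both groups. Myh11, smooth muscle myosin heavy chain, had a mean of 0.257 ± 0.185 FPKM in WT and 1.72 ± 1.07 FPKM in CSF1, a mean just under the limit for testing. With no limit on the mean its adjusted p was 0.0523 by limma. Lmod1, the actin nucleator leiomodin, was at 0, 0.00766 and 0 FPKM in the WT libraries and 0.366, 0.118 and 0.172 FPKM in the CSF1 libraries (limma adjusted p = 0.0533 with no limit). Synpo2, myopodin, was at 0.0136, 0 and 0.0639 FPKM in the WT libraries and 0.392, 0.414 and 0.328 FPKM in the CSF1 libraries and passed with no limit (log2 change 0.43 ± 0.05, limma adjusted p = 0.00323). In each of these 3 genes the CSF1 libraries lay above all WT libraries, at levels that remain below 1 FPKM for Lmod1 and Synpo2.

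Fibroblast matrix genes were higher from 2 starting points. Of the 18, 14 had a mean of at least 1 FPKM and all 14 were higher, where 24.9% of all tested genes were. Of these 14, 9 entered the test through their CSF1 level alone, so the count and the median are a description. The median log2 change was 3.13, and the distance to the 2.48 of the smooth muscle genes was not tested. Dcn, Mgp and Thbs1 were already clearly expressed in the WT libraries, while most of the others were below 1 FPKM there. Dcn encodes decorin, a small proteoglycan that binds collagen fibrils (chromosome 10, 97479500 to 97518162, plus strand). It was at 95.6, 88.2 and 102 FPKM in the WT libraries and 455, 522 and 394 FPKM in the CSF1 libraries. Both groups were tight and apart, with means of 95.2 ± 6.77 and 456.9 ± 64.1 FPKM, 4.80-fold higher (log2 change 2.24 ± 0.14, limma adjusted p = 1.94e-05). By mean level Dcn held rank 805 of 24337 genes in WT and rank 165 in CSF1.

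Mgp encodes matrix Gla protein, an inhibitor of calcification (chromosome 6, 136872435 to 136875805, minus strand). It was at 16.0, 15.4 and 19.9 FPKM in the WT libraries and 573, 2036 and 234 FPKM in the CSF1 libraries. The WT libraries were close together, while CSF1 replicate 5 was 8.68 times CSF1 replicate 8. On this scale its log2 change was the highest among the 40 genes at 5.18 ± 0.64 (limma adjusted p = 0.000521), though with a pseudocount of 0.1 it was 5.25 and that of Tagln 6.58. It was 4.35 without CSF1 replicate 5 and 5.91 without CSF1 replicate 8. Thbs1, thrombospondin, a matrix glycoprotein that macrophages and platelets also make (chromosome 2, 118111922 to 118127133, plus strand), was at 16.1, 13.8 and 17.5 FPKM in the WT libraries and 204, 213 and 186 FPKM in the CSF1 libraries. It varied little within either group, in contrast to Mgp, and had the lowest adjusted p of the 40 genes (log2 change 3.59 ± 0.14, limma adjusted p = 2.34e-06).

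Sparc, osteonectin, a collagen chaperone of the matrix (chromosome 11, 55394159 to 55420080, minus strand), was at 4.10, 2.51 and 6.01 FPKM in the WT libraries and 93.0, 188 and 37.2 FPKM in the CSF1 libraries. Pcolce, which enhances the trimming of procollagen (chromosome 5, 137605107 to 137611404, minus strand), was at 0.449, 0.948 and 2.72 FPKM in the WT libraries and 35.2, 63.9 and 13.9 FPKM in the CSF1 libraries. In both genes WT replicate 8 was the highest of its group and CSF1 replicate 8 the lowest of its own, and the groups did not overlap. The log2 changes were 4.13 ± 0.52 for Sparc (limma adjusted p = 0.000557) and 3.90 ± 0.53 for Pcolce (limma adjusted p = 0.000831). Without CSF1 replicate 5 the change of Sparc was 3.58, and without CSF1 replicate 8 the changes were 4.73 for Sparc and 4.47 for Pcolce.

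The other 9 tested matrix genes were all under 1 FPKM in WT on average and between 3.46 and 37.0 FPKM in CSF1. Bgn, biglycan, the nearest relative of decorin here, rose from 0.870 ± 0.164 to 37.0 ± 31.0 FPKM, and its log2 change was 3.98 ± 0.54 (adjusted p = 0.000826 by limma). Its change was 3.34 without CSF1 replicate 5 and 4.64 without CSF1 replicate 8. Ogn and Lum, further small proteoglycans, rose 21.6-fold and 19.3-fold in mean FPKM. The fibulins Fbln1 and Fbln2, which bridge elastic fibres and basement membranes, rose 26.9-fold and 10.5-fold. Lox, which crosslinks collagen and elastin, rose 36.5-fold, and Dpt, dermatopontin, rose 30.6-fold. Fn1, fibronectin, rose from 0.252 ± 0.217 to 5.75 ± 0.443 FPKM, and Postn, periostin of activated fibroblasts, rose from 0.315 ± 0.119 to 3.46 ± 0.356 FPKM.

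Loxl1, Fbn1, Tnc and Eln were the lowest of the class. Loxl1, an elastin crosslinker, had a mean of 0.0360 ± 0.0251 FPKM in WT and 1.67 ± 1.06 FPKM in CSF1, and Fbn1, fibrillin, had 0.0648 ± 0.0853 and 1.22 ± 0.571 FPKM. Tnc, tenascin, had 0.121 ± 0.145 and 0.976 ± 0.0761 FPKM. All 3 passed with no limit on the mean (limma adjusted p = 0.0272, 0.0191 and 0.00556). Eln, elastin itself, did not pass (adjusted p = 0.13 by limma), with CSF1 values from 0.212 to 2.17 FPKM.

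The fibroblast surface genes separated into abundant and scarce members. Pdgfra, the receptor for platelet-derived growth factor that marks most fibroblasts (chromosome 5, 75152291 to 75198204, plus strand), was at 0.0988, 0.0450 and 0.157 FPKM in the WT libraries and 4.71, 12.2 and 1.81 FPKM in the CSF1 libraries. The groups did not overlap and CSF1 replicate 5 stood highest, as in Mgp. Its log2 change was 2.44 ± 0.48 (limma adjusted p = 0.00534), with 1.87 without CSF1 replicate 5. Pdpn, podoplanin, a membrane glycoprotein of fibroblasts that some basal and inflammatory cells also carry (chromosome 4, 143267409 to 143299564, minus strand), was at 1.45, 0.949 and 1.90 FPKM in the WT libraries and 11.8, 27.1 and 26.8 FPKM in the CSF1 libraries. Here CSF1 replicates 5 and 8 were level and replicate 3 was the low one, and the log2 change was 3.16 ± 0.32 (limma adjusted p = 0.000182).

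The 3 other surface genes were too low for the test. Pdgfrb, the related receptor that pericytes and fibroblasts share, was at 0.163, 0.0989 and 0.148 FPKM in the WT libraries and 0.848, 1.43 and 0.405 FPKM in the CSF1 libraries. Thy1 was at 0.0618, 0 and 0.121 FPKM in the WT libraries and 0.236, 0.171 and 0.482 FPKM in the CSF1 libraries. Their CSF1 libraries lay above all WT libraries, by little in Thy1. Fap, the fibroblast activation protein, was at 0.0377, 0 and 0 FPKM in the WT libraries and 0.269, 1.72 and 0 FPKM in the CSF1 libraries, so the groups overlapped. With no limit on the mean none of the 3 passed (limma adjusted p = 0.055, 0.0996 and 0.326).

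Mesenchymal transcription factors were low in every library, and only Snai2 reached a mean of 1 FPKM. Snai2, or Slug, which basal epithelial cells also use (chromosome 16, 14705859 to 14709382, plus strand), was at 0.174, 0.238 and 0.552 FPKM in the WT libraries and 1.24, 3.29 and 1.58 FPKM in the CSF1 libraries. The CSF1 libraries were all above WT, with replicate 5 the highest, and the log2 change was 1.15 ± 0.29 (limma adjusted p = 0.0162). This call was the least stable of the 27: it was lost with quantile normalization (log2 change 0.48, adjusted p = 0.234), without WT replicate 3 (adjusted p = 0.0533) and without WT replicate 5 (adjusted p = 0.0572), and without CSF1 replicate 5 its mean was under the limit for testing.

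Zeb1 was at 0.207, 0.0511 and 0.309 FPKM in the WT libraries and 0.943, 1.47 and 0.978 FPKM in the CSF1 libraries. Zeb2, which macrophages express as well, was at 0.0397, 0.0526 and 0.135 FPKM in the WT libraries and 0.988, 0.682 and 2.34 FPKM in the CSF1 libraries, highest in replicate 8. Twist1 was at 0.0442, 0 and 0.182 FPKM in the WT libraries and 0.525, 1.47 and 0.226 FPKM in the CSF1 libraries, highest in replicate 5. The groups did not overlap in these 3 genes, though the lowest CSF1 library of Twist1 was barely above the highest WT library. With no limit on the mean, Zeb1 and Zeb2 passed (limma adjusted p = 0.0109 and 0.0352) and Twist1 did not (adjusted p = 0.145).

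The cytoskeletal genes were among the most abundant. Vim, vimentin, the intermediate filament of mesenchymal cells and of macrophages (chromosome 2, 13574311 to 13582826, plus strand), was at 3.15, 2.01 and 3.93 FPKM in the WT libraries and 40.0, 49.3 and 53.9 FPKM in the CSF1 libraries. The groups were far apart, with a 15.8-fold higher mean and a log2 change of 3.61 ± 0.21 (limma adjusted p = 1.29e-05). Gsn, gelsolin, which severs actin filaments and is made by fibroblasts, muscle and many epithelia (chromosome 2, 35256359 to 35307902, plus strand), was at 31.5, 23.6 and 51.8 FPKM in the WT libraries and 562, 799 and 432 FPKM in the CSF1 libraries. WT replicate 8 was again the highest of WT and CSF1 replicate 8 the lowest of CSF1, and the log2 change was 4.06 ± 0.30 (limma adjusted p = 4.5e-05).

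**Figure D2:**
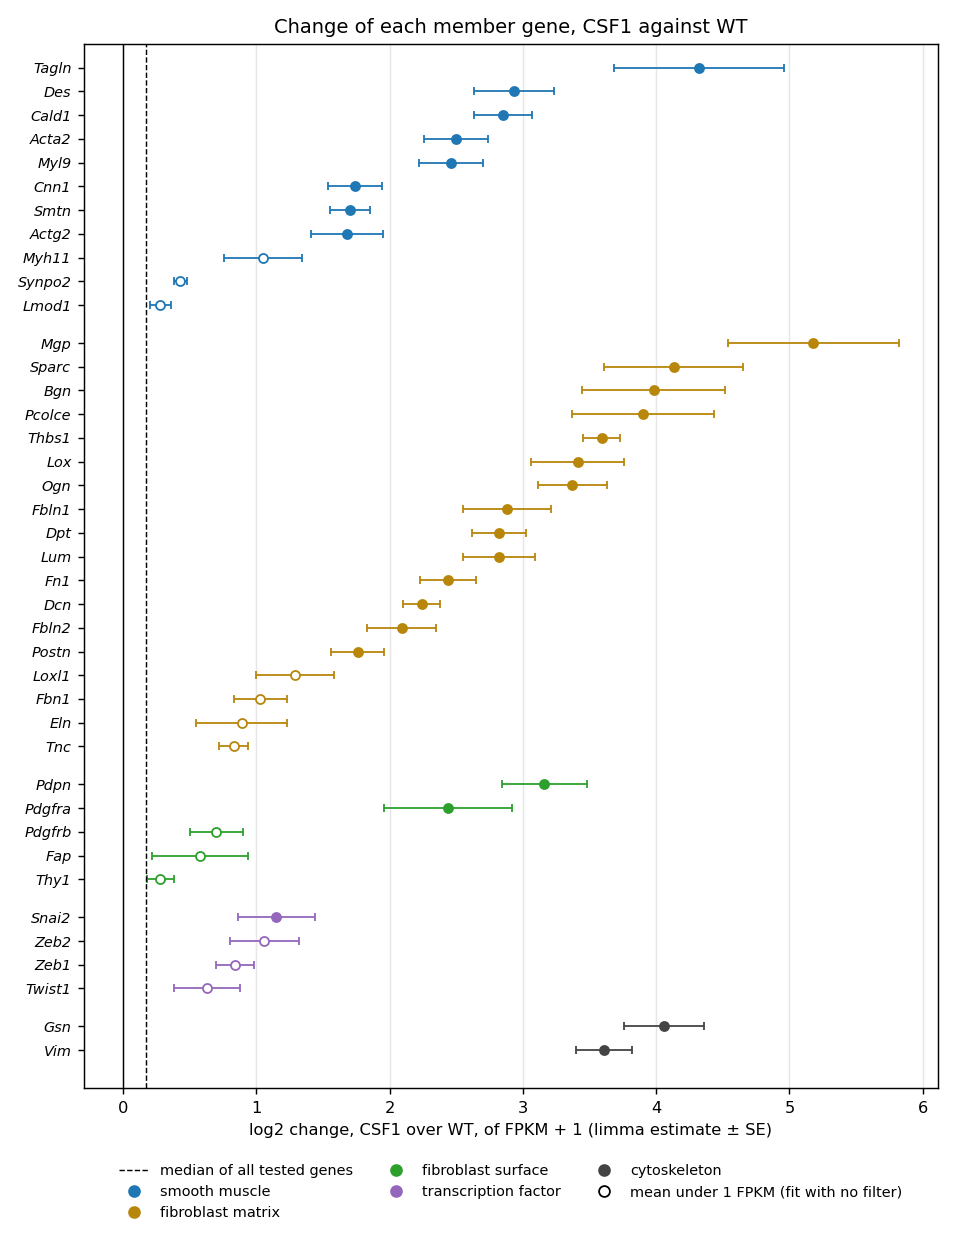
Log2 change of each of the 40 genes, CSF1 over WT, on the log2(FPKM + 1) scale, as limma's estimate with a bar of 1 SE, coloured by class, with open circles for genes under a mean of 1 FPKM (from the fit with no limit on the mean) and a dashed line at the median of all tested genes, 0.17. With this pseudocount Mgp has the highest change (5.18), the low open circles are compressed by the added pseudocount, and the longest bars belong to Tagln, Mgp, Bgn, Pcolce and Sparc.

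Other genes of the same cell types were read from lists beside the 40. Of 20 other fibroblast genes, all 20 were tested, 19 were higher and 0 lower, with 1 lower at an unadjusted p under 0.05. Only 4 had a WT mean of at least 1 FPKM and 16 entered through their CSF1 level, so the count and the median are a description. Their median log2 change was 2.81, where that of all genes was 0.17, with quantile normalization 17 were higher and 1 lower, and with no limit on the mean 17 were higher. The 3 most abundant of them all passed: Efemp1, a fibulin-like matrix protein, rose 18.6-fold, Gas6, a ligand of TAM receptors, rose 4.13-fold, and Col1a2, a chain of collagen I, rose 42.9-fold. The 1 that did not pass, Col6a3, was at 3.04, 4.84 and 3.83 FPKM in the WT libraries and 1.94, 3.31 and 1.27 FPKM in the CSF1 libraries, and it is named because it was the exception. Its partners in collagen VI, Col6a1 and Col6a2, also chosen after their values were seen, rose 45.9-fold and 26.4-fold.

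Of 20 other smooth muscle genes, 15 were tested. Of these, 7 were higher and 0 lower, where 24.9% and 7.47% of all tested genes were, and 1 was lower at an unadjusted p under 0.05. The median log2 change of the 15 was 0.57, and with quantile normalization 6 were higher and 3 lower. With the replicate number as a block 9 were higher and 1, Hspb6, was lower. In 8 of the 20 every CSF1 library lay above every WT library, which held for 28.6% of all genes with signal. In 2, Srf and Ppp1r12b, every CSF1 library lay below every WT library. Tpm1, a tropomyosin, rose 2.75-fold and Cnn3, the calponin that is not restricted to muscle, rose 3.13-fold. Csrp1, a LIM protein of smooth muscle and other cells, was at 259.5, 304.6 and 541 FPKM in the WT libraries and 385, 406 and 897 FPKM in the CSF1 libraries. It did not pass (log2 change 0.57 ± 0.37, limma adjusted p = 0.275), and it passed as higher with the replicate number as a block (adjusted p = 0.00997). Srf, the gene of serum response factor, was at 33.0, 31.0 and 31.0 FPKM in the WT libraries and 27.2, 25.8 and 29.5 FPKM in the CSF1 libraries. Its means were 31.7 and 27.5 FPKM and it did not pass (limma adjusted p = 0.266). Myocd, the gene of myocardin, was at or below 0.0705 FPKM in every library. Srf and Myocd are named for the CArG box and were picked after their values were seen.

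Of 12 other mesenchymal transcription factors, 2 had a mean of at least 1 FPKM. Tcf21, a factor of fibroblast precursors, was at 0.247, 0.226 and 1.05 FPKM in the WT libraries and 11.7, 21.0 and 9.24 FPKM in the CSF1 libraries, where it lay above all 4 factors described so far. It rose by a log2 change of 3.28 ± 0.32 (limma adjusted p = 0.000169). Tcf4 was higher by 0.60 ± 0.18 (limma adjusted p = 0.0336) and did not pass with the replicate block (adjusted p = 0.0511) or with no limit on the mean (adjusted p = 0.0644). With each of the 3 other scalings 1 of the 2 genes passed.

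Genes of the epithelial side, which fall when epithelial cells take on a mesenchymal state, were tested in the same fit. All 12 were tested, 4 were higher (Krt19, Epcam, Cldn7 and Cdh1) and 0 lower, with 1 lower at an unadjusted p under 0.05 and a median log2 change of 0.34. A count of 4 in 12 is near the 24.9% of all tested genes and is no result about the list. With quantile normalization 4 were higher and 2 lower. Krt19 rose 1.90-fold, a call lost with no limit on the mean (limma adjusted p = 0.0535), while Krt18 had means of 2279 and 2132 FPKM and Krt8 of 1335 and 1724 FPKM and neither passed (limma adjusted p = 0.703 and 0.309), though Krt8 passed with the replicate block. Cdh1, the E-cadherin gene, picked after its values were seen because the 4 factors can repress it, was at 74.7, 89.97 and 107.5 FPKM in the WT libraries and 185, 191 and 190.4 FPKM in the CSF1 libraries. It rose by a log2 change of 1.06 ± 0.15 (limma adjusted p = 0.00102). The ratio of Vim to Cdh1 was 0.0422, 0.0223 and 0.0365 in WT and 0.216, 0.258 and 0.283 in CSF1, so Vim differed more than Cdh1 did and stayed below it in all 6 libraries.

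Markers of several other cell types were also higher in CSF1, as were 24.9% of all tested genes. All 14 macrophage markers were higher, with a summed level of 24.6 to 116 FPKM in WT and 731 to 2903 FPKM in CSF1, led by Lyz2, Cd14 and C1qb, which rose 26.9-fold, 17.7-fold and 33.1-fold. Of 8 basal cell markers, 7 were tested and 6 were higher, with sums of 46.3 to 64.5 and 541 to 864 FPKM. Krt15, Krt17 and Krt14 led them and rose 14.1-fold, 9.93-fold and 11.1-fold. Of 11 endothelial markers, 4 were tested and 4 were higher (Plvap, Egfl7, Pecam1 and, named for completeness after its values were seen, Emcn), all 4 of which entered through their CSF1 level, with sums of 1.54 to 4.19 and 16.3 to 22.1 FPKM. Of 8 lymphocyte markers, 2 were tested and 2 were higher (Cd3g and Nkg7), both tested through their CSF1 level alone, with sums of 0.50 to 1.12 and 7.17 to 23.9 FPKM. Ms4a1 was listed at 0 in every WT library and at 0.702, 0 and 1.14 FPKM in the CSF1 libraries. It did not pass with no limit on the mean (limma adjusted p = 0.171). Of the 14 macrophage markers 8 entered through their CSF1 level, and of the 7 basal markers 2, so the counts of these 4 lists are a description. Egfl7 did not pass with no limit on the mean (adjusted p = 0.06 by limma). The part of these cell types in the levels of the 40 genes was not tested.

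Markers of further muscle, mesenchymal and nerve cells were read in the same way. None of 8 pericyte markers reached a mean of 1 FPKM, their sums were 0.577 to 1.48 FPKM in WT and 3.94 to 5.53 FPKM in CSF1, and Ndufa4l2 was listed at 0 in all 6 libraries. With no limit on the mean 3 of the 8 passed as higher (Mcam, Notch3 and Abcc9, limma adjusted p = 0.00414, 0.00663 and 0.0189), and in 5 every CSF1 library lay above every WT library. Over all 17920 genes with signal these shares were 16.2% and 28.6%. The groups overlapped in Kcnj8 and in Higd1b, whose log2 change was -0.03. Of 7 skeletal muscle markers, 2 were tested (Mylpf and Acta1) and 0 passed, with sums of 3.32 to 5.97 and 3.79 to 8.21 FPKM. Ckm was at 0.174, 0.0476 and 0.0918 FPKM in the WT libraries and listed at 0 in all CSF1 libraries. It did not pass with no limit on the mean (limma adjusted p = 0.0821). Myh4 was at 0.00538, 0 and 0 FPKM in the WT libraries and likewise at 0 in all CSF1 libraries. Of 6 glia and nerve markers, 1 was tested (Mbp) and 0 passed, with sums of 6.18 to 10.03 and 10.3 to 11.2 FPKM. Of 5 mesothelial markers, 2 were tested and 1 was higher: Msln was at 4.24, 0.892 and 2.22 FPKM in the CSF1 libraries and listed at 0 in each WT library. Wt1 was also at 0 in all WT libraries and passed as higher with no limit on the mean (limma adjusted p = 0.00351). Lrrn4 was at 0.00960, 0 and 0.0113 FPKM in the WT libraries and listed at 0 in all CSF1 libraries. Upk3b was listed at 0 in all 6 libraries, and Upk1b, which urothelium expresses, had means of 42.0 and 33.6 FPKM and did not pass.

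The CSF1 libraries were then compared with each other, by the ratio of each library to the geometric mean of the 3. This is a description with no test, since each group has 3 libraries. Of the 40 genes, 27 were at 1 FPKM or more in all CSF1 libraries. Of these, 20 were highest in replicate 5, 18 were lowest in replicate 8, and 16 held the order 5, 3, 8 from high to low. Over all 10383 genes at that level, 38.8% were highest in replicate 5, 41.2% were lowest in replicate 8 and 23.6% held that order. In fibroblast matrix genes, 11 of 14 were highest in replicate 5 and 11 of 14 lowest in replicate 8, and in smooth muscle genes both counts were 5 of 8. The median ratio of highest to lowest library was 2.06 for the matrix genes and 1.63 for the smooth muscle genes, where that of all genes was 1.36.

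The spread was uneven within the classes. In 9 genes (Acta2, Cnn1, Smtn, Dcn, Fn1, Postn, Dpt, Thbs1 and Vim) the highest CSF1 library was less than 1.5 times the lowest. In 5 genes (Mgp, Pdgfra, Bgn, Sparc and Pcolce) it was more than 4 times the lowest, with ratios of 8.68, 6.71, 6.50, 5.05 and 4.62. These 5 shared the order 5, 3, 8. Among smooth muscle genes, Des, Actg2 and Tagln held that order with ratios of 2.58, 2.28 and 2.17, while Cnn1 and Smtn were nearly level at 1.14 and 1.17. The 3 genes highest in replicate 8 were Smtn, Fn1 and Vim.

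The same ratios were read for other lists. Of 17 other fibroblast genes at 1 FPKM or more in the CSF1 libraries, 15 were highest in replicate 5 and 16 lowest in replicate 8, with a median highest-to-lowest ratio of 2.94. Other smooth muscle genes were placed differently: of 13 at that level, 9 were highest in replicate 8 and 4 in replicate 5, 1 was lowest in replicate 8 and 1 held the order 5, 3, 8. Of 14 macrophage markers, 13 were highest in replicate 8, with a median ratio of 3.85, and of 7 basal markers 6 were highest in replicate 8, as were 34.8% of all genes. The CSF1 library with the least of most matrix genes was therefore the one with the most of the macrophage and basal markers. The WT libraries were read likewise. Among the 9 genes of the 40 at 1 FPKM or more in all WT libraries, 7 were highest in replicate 8 and 2 (Myl9 and Smtn) in replicate 5, while 6 were lowest in replicate 5 and 3 (Acta2, Myl9 and Smtn) in replicate 3. Replicate 8 was the highest for Sparc, Vim and Gsn with ratios to the geometric mean of 1.52, 1.35 and 1.53, and replicate 5 was the lowest for the same genes at 0.63, 0.69 and 0.70. Dcn ranged only from 0.93 to 1.07. At the same level in all WT libraries were 4 macrophage markers, with median ratios of 0.53, 0.74 and 2.34. The 5 basal markers at that level had 0.90, 1.05 and 1.14. The WT library with the most of most of the 9 genes was thus also the highest by these medians. This differed from the relation in the CSF1 libraries.

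**Figure D3:**
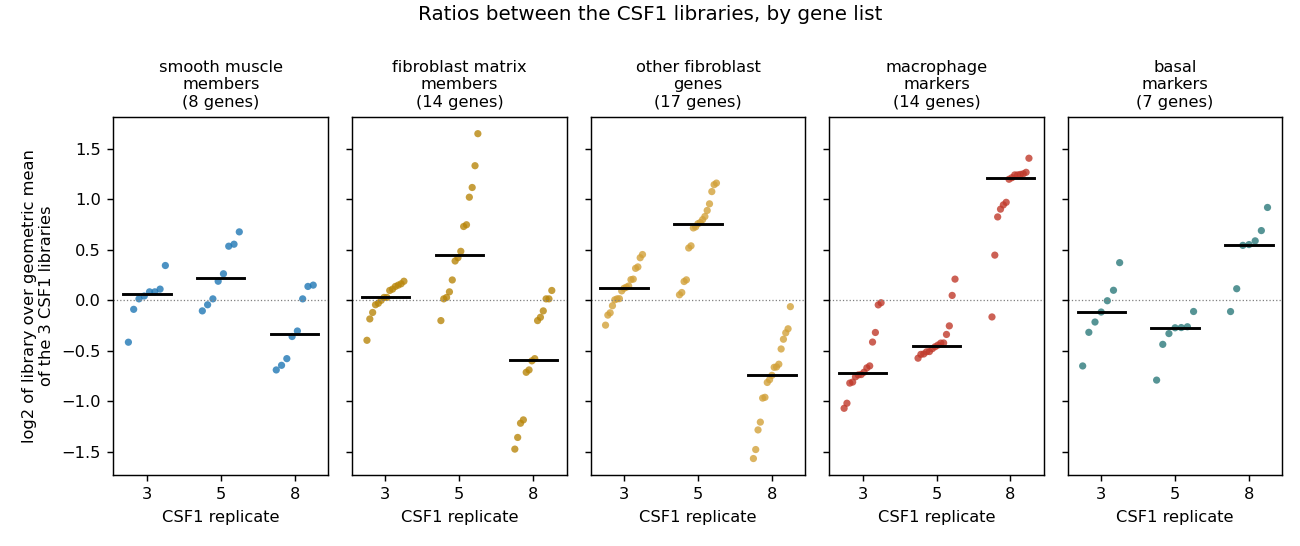
Log2 of each CSF1 library over the geometric mean of the 3 CSF1 libraries (vertical axis) by replicate number (horizontal axis), with 1 point per gene at 1 FPKM or more in all 3 libraries and a black bar at the median, in panels for smooth muscle members, fibroblast matrix members, other fibroblast genes, macrophage markers and basal markers. Matrix and other fibroblast genes are high in replicate 5 and low in replicate 8, macrophage and basal markers are high in replicate 8, and the medians of the smooth muscle genes lie in the order of the matrix genes at smaller distances, an order that 4 of the 8 genes hold.

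Ratios between genes, chosen after the values were seen, changed more between the groups for some pairs than for others. Mgp over Dcn was 0.167, 0.175 and 0.195 in WT and 1.26, 3.90 and 0.595 in CSF1, so Mgp went from the lesser to the greater of the pair in 2 of 3 CSF1 libraries. Dcn over Bgn was 111, 85.0 and 143 in WT and 15.8, 7.33 and 36.0 in CSF1. Dcn was thus in large excess over Bgn in WT, and less so in CSF1. Dcn over Col1a1, a collagen I chain, was 1956, 213 and 218 in WT and 34.5, 20.5 and 58.4 in CSF1. Acta2 over Dcn differed less, at 0.0286, 0.0546 and 0.0547 in WT and 0.0679, 0.0626 and 0.0589 in CSF1. All its CSF1 values were above all its WT values, by little over WT replicates 5 and 8. Sparc over Bgn was 4.75, 2.42 and 8.47 in WT and 3.23, 2.63 and 3.39 in CSF1, and these groups overlapped.

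Transcript shares were read for members with several listed transcripts and at least 5 FPKM in every library of a group, as a description with no test. Dcn and Gsn are given in full and were picked after their values were seen. Cufflinks estimated 2 transcripts of Dcn that differ in their start. The transcript from the upstream start (NM_001190451, from 97479500 on chromosome 10) held 81.6%, 87.1% and 83.7% of Dcn FPKM in WT and 59.0%, 56.8% and 58.9% in CSF1. The groups did not overlap, with means of 84.1% ± 2.8 and 58.2% ± 1.3 (SD, n = 3 per group). The transcript from the downstream start (NM_007833, from 97482350) was at 17.6, 11.4 and 16.6 FPKM in the WT libraries and 187, 226 and 162 FPKM in the CSF1 libraries, 12.6-fold higher, while the upstream one was 3.32-fold higher.

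Gsn has 4 listed transcripts from 3 starts, whose promoters are printed above. The transcript from the downstream start (NM_146120, from 35282380 on chromosome 2), held 66.9%, 76.0% and 72.8% of Gsn FPKM in WT and 100%, 100% and 83.7% in CSF1. The groups did not overlap. The transcript from the upstream start (NM_001206367) took 19.1%, 0% and 27.2% in WT and 0%, 0% and 16.3% in CSF1, and the one from the middle start (NM_001206369) took 14.0%, 24.0% and 0% in WT and 0% in all CSF1 libraries. Of the other genes read, Sparc had 80.5%, 100% and 86.6% from NM_009242 in WT and 80.2%, 83.4% and 82.8% in CSF1, which overlap. Smtn (NM_013870) and Pdpn (NM_010329) kept 1 main transcript at 85.4% or more in every library. NM_001286182 of Lox held 80.9% to 100% in WT and 65.8% to 75.5% in CSF1. NM_001276411 of Fn1 held 51.3% to 100% and 22.6% to 41.2%. Lox and Fn1 were below 1 FPKM in every WT library. The transcripts of a gene share most of their exons, so these splits are model estimates, and a share of 0% may be a failed estimate.

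**Figure D4:**
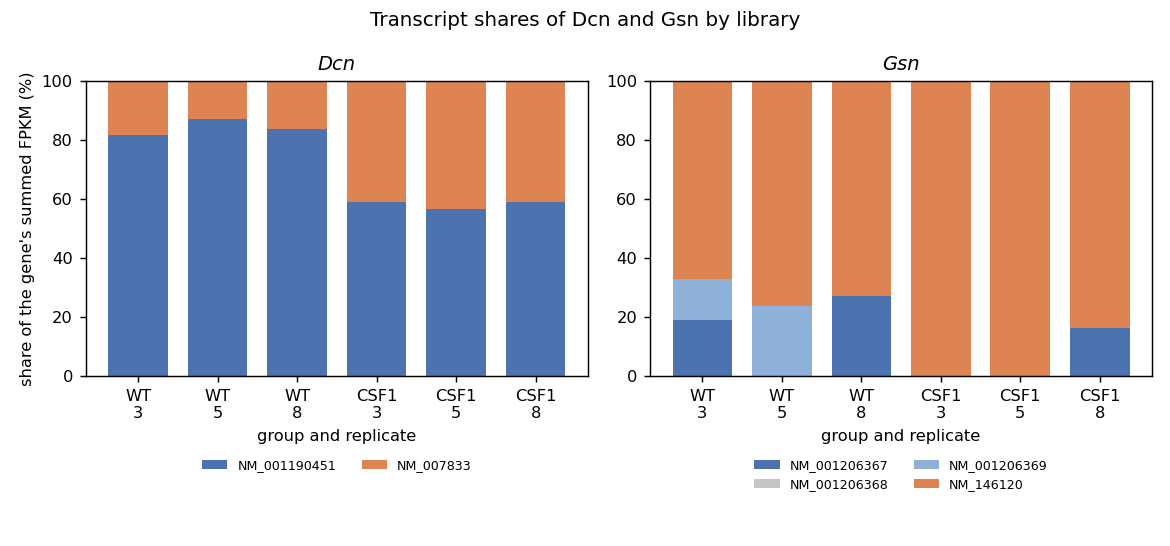
Share of the summed FPKM of Dcn (left) and Gsn (right) held by each listed transcript, in percent, as 1 stacked bar per library with WT replicates 3, 5 and 8 followed by CSF1 replicates 3, 5 and 8. The NM_007833 share of Dcn is 12.9% to 18.4% in WT and 41.0% to 43.2% in CSF1, and NM_146120 fills the whole Gsn bar in CSF1 replicates 3 and 5.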

How the data were processed

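RNA of 3 WT and 3 CSF1 samples was sequenced. Per the labels' protocols, cDNA came from the SMART-Seq v4 kit with random and oligo-dT primers, and both the Nextera XT and TruSeq DNA kits are named, neither of which keeps the strand. The submitters' processing notes name bcl2fastq 1.8.3, TopHat and Cufflinks without versions, and mm10. The deposited Cufflinks tables, 1 per library, give isoform FPKM values and FPKM confidence bounds for 34535 transcripts, per the file headers. The deposited coverage column is a signal equal to FPKM times 1 constant per library. Fragment totals were not used here, so no counting interval is given.

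FPKM was summed by gene symbol, and 9 genes with a failed Cufflinks status were left out, none of them described here. Genes averaging 1 FPKM or more were tested with limma 3.58.1 in R 4.3.3 (eBayes with trend) on log2(FPKM + 1), which understates the change of low genes, two-sided, with Benjamini-Hochberg adjustment over 10951 genes and a threshold of 0.05. The fit was tested on simulated data. The 40 genes and all lists were chosen with earlier results of these data known. Values in each library are given for the 5 genes of highest mean in the smooth muscle and matrix classes and for all genes of the 3 smaller classes. In other lists the 3 tested genes of highest mean are named, and in marker lists of other cell types also those listed at 0, and 1 lymphocyte marker of the fixed list is not reported here. Libraries of both groups share the numbers 3, 5 and 8, and deviations from the group means correlated between same-numbered libraries at 0.26, 0.11 and 0.18 across genes, so the numbers were also fitted as a block. Alternatives were other pseudocounts, limits on the mean, scalings, the most abundant transcript per gene, no trend, robust eBayes, keeping the failed genes, the block, and leaving out each library.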

Additional observations from a re-analysis of the deposited data

How the results depend on the processing

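All 27 genes of the 40 that were tested kept a positive log2 change under every alternative in which they were tested, and Snai2 was the only 1 of them to lose its call, in the 3 settings given with its values. With no limit on the mean, 3 transcription factors were higher. With a mean of at least 5 FPKM, 17 of the 40 genes were tested and 17 were higher (5 smooth muscle, 9 matrix, 1 surface and 0 transcription factor genes), because fewer genes entered, and 1761 of all genes were higher. Quantile normalization gave 1694 genes higher and 2362 lower and 0 transcription factors, and the number of lower genes was 1415 with median-ratio scaling and 1412 when rescaled outside the 5 most abundant genes, against 818 with FPKM as deposited. Leaving out 1 library gave 0 to 1 transcription factors and 25 to 28 of the 40 genes higher, where 25 to 29 of the 40 were tested. Without CSF1 replicate 5, 25 were tested and 25 were higher, and without WT replicate 3, 29 were tested and 27 were higher. Of all genes 478 to 850 were lower, with 478 without WT replicate 5 and 526 without WT replicate 8. The cause of these shifts was not tested. With the replicate block, 2883 genes were higher and 890 lower, and 27 of the 40 genes were higher. Pairing by number changed no call among the 27 tested genes, and the other 13 of the 40 were not fitted with the block. Shallower WT libraries limit what can be said of genes near 0 there.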
